A study of Mus musculus with 4 samples.

Results

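After IRF4 was returned to *Irf4*-/- leukemia cells, 9 genes were followed that control, or are controlled by, the phosphoinositide 3-kinase (PI3K) pathway. They comprised the forkhead transcription factors *Foxo1*, *Foxo3*, *Foxo4* and *Foxp1*, the PI3K catalytic subunit *Pik3cd*, the regulatory subunit *Pik3r1*, the PI3K inhibitor *Pik3ip1*, the kinase *Akt1* and the adaptor *Irs2*. They were taken by name, through Ensembl identifiers matched to GENCODE M21 symbols. All 9 were found among the 55359 identifiers of the count table and among the 14637 genes with enough counts to be tested.

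The cells were T8, a line of B-cell progenitor leukemia (pB-ALL) grown out of the tumor of an *Irf4*-/- mouse, so both groups lacked the endogenous factor. Cells received a retrovirus encoding GFP alone (EV-RV) or GFP together with IRF4 (IRF4-RV), and the RNA of cells still viable on the day after transduction was sequenced in bulk. Each group held 2 libraries, described as biological replicates, and the comparison asks what IRF4 re-expression does to the transcriptome. The age of the mouse is not given in the labels, the sources used here do not say whether the sequenced cells were sorted for GFP, and all libraries came from a single tumor. The p-values therefore measure the spread between cultures of one tumor's cells and not between tumors.

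As background, growth factor and antigen receptors activate class I PI3K, often through adaptors such as IRS2, and the lipid it makes recruits and activates AKT. AKT phosphorylates FOXO factors, which then leave the nucleus, so FOXO target genes are turned on when PI3K signaling is low. In B-cell progenitors, FOXO1 drives genes needed for recombination of immunoglobulin loci and for IL-7 receptor expression, while the p110δ catalytic subunit encoded by *Pik3cd* carries much of the PI3K activity of lymphocytes. The measurements below are of mRNA and say nothing on phosphorylation or on where a protein was located.

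Libraries held between 31230223 and 37817752 counts. A floor of 3 counts, below which no level is read, corresponded to between 0.0793 and 0.0961 CPM (counts scaled to a common library size). This floor was scaled by total counts alone, while the CPM values below also used TMM factors. It is a limit that covers counting error only. *Irf4* was counted 8070 and 7600 times with EV-RV against 95578 and 90693 times with IRF4-RV, in accordance with the labels, although reads of the vector and of the disrupted locus are not separated in these counts. All 10 B-cell progenitor markers were tested, and summed to 5249 and 5595 CPM with EV-RV against 4579 and 4527 CPM with IRF4-RV (edgeR, 1 marker higher and 3 lower), a shift whose part in the results was not tested. The 6 T and NK cell markers summed to between 1.03 and 1.51 CPM, with *Cd8a* and *Ncr1* at 0 in all libraries, and the 6 myeloid markers to at most 0.159 CPM, with *Adgre1* at 0. The 6 stromal markers summed to 49.8 and 93.8 CPM with EV-RV, and to 48.9 and 232.2 CPM in the IRF4-RV libraries. IRF4-RV replicate 2 therefore stood apart in stromal RNA, in a line first grown on ST2 stromal cells, so the changes of the 9 genes and the counts of called genes in each list are also given without this library, and a named gene whose call was lost without it is stated. The part of stromal RNA in the results was not tested beyond that.

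Of the 9 genes, 5 passed the FDR cutoff of 0.1 (edgeR, quasi-likelihood, Benjamini-Hochberg adjusted over all genes tested). *Irs2*, *Pik3ip1*, *Foxo1* and *Foxo3* rose with IRF4-RV and *Pik3cd* fell, while *Foxo4*, *Foxp1*, *Pik3r1* and *Akt1* did not pass. Over all genes, the same rule called 29.7%, with 16% higher and 13.7% lower. The 9 genes were chosen with earlier results of these data known, so their count is a description and not independent support. Fewer genes were called higher (1743) than lower (2867) when only library size was used for scaling, which moved the median over all genes from 0.0073 to -0.0832 and left the directions of these 9 genes as they were. The median log2 fold change of the 9 genes was 0.19. The CPM of the groups did not overlap for 7 of them, all but *Foxp1* and *Pik3r1*, which was also the case for 61.3% of all genes tested. In bulk RNA, a change in the share of cells with a transcript and a change in its amount per cell cannot be told apart.

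**Figure D1:**
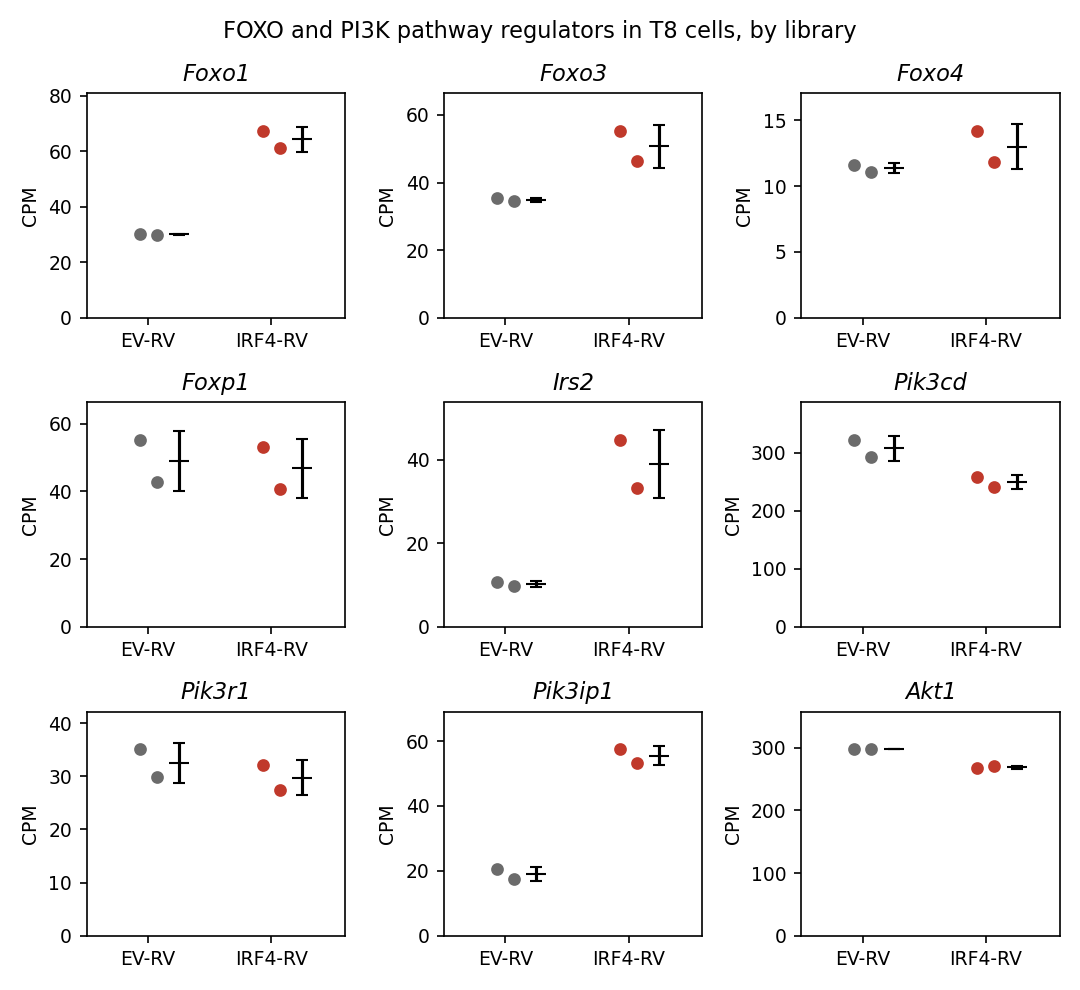
Expression of each gene in each library (points, CPM on a linear axis from 0) with the group mean and SD (bars, n = 2), EV-RV in gray and IRF4-RV in red. *Foxo1*, *Foxo3*, *Irs2*, *Pik3ip1* and, by a small margin, *Foxo4* lay higher in both IRF4-RV libraries, *Pik3cd* and *Akt1* lay lower in both, and the groups overlapped for *Foxp1* and *Pik3r1*.

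**Figure D2:**
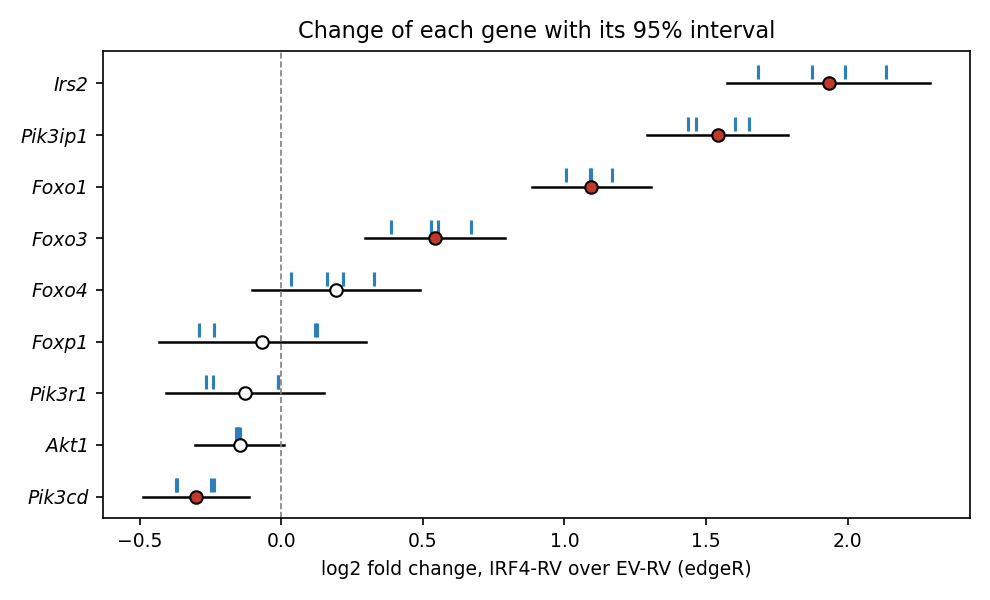
Log2 fold change of each gene, IRF4-RV over EV-RV, with its 95% confidence interval (edgeR). Filled points passed the FDR cutoff of 0.1, and each blue tick marks the estimate after 1 library was left out. The intervals of *Irs2*, *Pik3ip1* and *Foxo1* began at 0.89 or higher, and among the 9 genes the ticks of *Foxp1* alone lay on both sides of 0.

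The sequences in front of the start sites are shown for 3 of the 4 genes that rose and for *Akt1*, since they are the letters in which sites for IRF4 or for FOXO factors themselves would be sought. RefSeq (GRCm38.p6) gave promoter windows of 250 bases before and 50 after a start site for 8 of the 9 genes, 14 windows in all, and none for *Foxo4*. Each stretch is given 5′ to 3′ on the strand of its gene, in lower case, and stops at the RefSeq start site or, where that comes first, at the GENCODE gene model. The window of *Pik3ip1* lay within its GENCODE gene model and is not shown. Capitals mark the single match found, a forkhead site. The stretches were chr3:52268087-52268335 on the plus strand for *Foxo1*, and on the minus strand chr10:42276756-42276945 for *Foxo3*, chr8:11008930-11009179 for *Irs2* and chr12:112674885-112675134 for *Akt1*.
Foxo1: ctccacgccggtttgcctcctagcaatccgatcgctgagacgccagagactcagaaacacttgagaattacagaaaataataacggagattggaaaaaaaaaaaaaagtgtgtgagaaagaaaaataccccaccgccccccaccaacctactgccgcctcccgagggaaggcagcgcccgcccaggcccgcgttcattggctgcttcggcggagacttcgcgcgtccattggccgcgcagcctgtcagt
Foxo3: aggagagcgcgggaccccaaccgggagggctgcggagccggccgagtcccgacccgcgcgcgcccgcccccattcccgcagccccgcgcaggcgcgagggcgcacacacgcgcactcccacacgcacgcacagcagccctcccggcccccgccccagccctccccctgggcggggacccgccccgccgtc
Irs2: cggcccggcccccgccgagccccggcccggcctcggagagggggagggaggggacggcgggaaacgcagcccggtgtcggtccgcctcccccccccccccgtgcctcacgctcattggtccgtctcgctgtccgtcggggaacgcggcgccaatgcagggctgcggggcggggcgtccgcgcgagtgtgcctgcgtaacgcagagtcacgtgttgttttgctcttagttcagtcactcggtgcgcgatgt
Akt1: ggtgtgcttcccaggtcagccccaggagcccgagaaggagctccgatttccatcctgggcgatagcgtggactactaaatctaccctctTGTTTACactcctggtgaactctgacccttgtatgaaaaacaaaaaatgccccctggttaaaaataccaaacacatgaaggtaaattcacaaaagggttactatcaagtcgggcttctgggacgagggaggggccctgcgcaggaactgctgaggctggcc

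The core of the interferon-stimulated response element (GAAA, any 2 bases and GAAA) and the composite element of ETS and IRF factors (GGAA, any 2 bases and GAAA) were sought on both strands. Both were present in 0 of the 14 windows of these genes, and in 3.44% and 2.72% of all 32851 RefSeq windows. These patterns can overlap each other. The forkhead site GTAAACA was found in 1 of the 14 windows, in front of *Akt1*, and in 3.65% of all windows. It lay on the reverse strand. On the strand of the gene it reads TGTTTAC, with the first of these letters at -161 from the start site. Sites with other letters and more distant elements were not sought, and a match is not evidence of binding.

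*Foxo1* (ENSMUSG00000044167), the FOXO factor with the best described role in B-cell progenitors, lies on the plus strand of chromosome 3 from 52268336 to 52353221 (GRCm38). It was counted 1009 and 943 times with EV-RV against 2282 and 2227 times with IRF4-RV. Both IRF4-RV libraries were well above both EV-RV libraries, and the replicates of each group lay close together. The mean level rose 2.14-fold, from 30.1 ± 0.235 to 64.3 ± 4.39 CPM (SD, n = 2), with a log2 fold change of 1.10 (95% interval 0.89 to 1.30, edgeR adjusted p = 0.000144). Without IRF4-RV replicate 2 it was 1.17. By size of the rise, *Foxo1* ranked 720 among the 14637 genes tested.

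*Foxo3* (ENSMUSG00000048756, chromosome 10, minus strand, 42181841 to 42276755), which shares the DNA motif of FOXO1 and is linked to quiescence and cell death, was counted 1177 and 1086 times with EV-RV against 1873 and 1686 times with IRF4-RV. Both IRF4-RV libraries were again higher, but they differed more from each other than the EV-RV libraries did. The level went from 34.9 ± 0.589 to 50.8 ± 6.36 CPM (SD, n = 2), a 1.46-fold rise (log2 fold change 0.54, 95% interval 0.30 to 0.79, edgeR adjusted p = 0.00882). Without IRF4-RV replicate 2 the log2 fold change was 0.67. The 95% intervals of *Foxo1* and *Foxo3* did not overlap, although the difference between the 2 genes was not itself tested.

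*Foxo4* (ENSMUSG00000042903, chromosome X, plus strand, 101254528 to 101260873), the third FOXO factor followed, had 388 and 350 counts with EV-RV against 481 and 430 with IRF4-RV. In CPM these were 11.6 and 11.1 against 14.2 and 11.8, so that the lower IRF4-RV library was barely above the higher EV-RV library. The log2 fold change of 0.19 did not pass the test (95% interval -0.10 to 0.49, edgeR adjusted p = 0.331). The interval held values up to a rise close to that of *Foxo3* but none as large as that of *Foxo1*. Without IRF4-RV replicate 2 the value was 0.33 (edgeR adjusted p = 0.176).

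*Foxp1* (ENSMUSG00000030067, chromosome 6, minus strand, 98925338 to 99522721) encodes a forkhead factor of another family that is needed for early B-cell development and can compete with FOXO factors for their sites. Its counts were 1844 and 1346 with EV-RV against 1796 and 1479 with IRF4-RV. The first replicate was higher than the second in both groups, and the spread within a group exceeded the difference between groups. Means were 49.0 ± 8.89 and 46.8 ± 8.77 CPM (SD, n = 2), with a log2 fold change of -0.07 (95% interval -0.43 to 0.30, edgeR adjusted p = 0.812). The sign depended on single libraries, since the value was 0.13 without EV-RV replicate 1 and 0.12 without IRF4-RV replicate 2.

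*Irs2* (ENSMUSG00000038894, chromosome 8, minus strand, 10984681 to 11008458), the adaptor that couples insulin, IGF-1 and some cytokine receptors to PI3K and that is itself a known FOXO target, changed most among the 9 genes. It was counted 355 and 307 times with EV-RV against 1514 and 1208 times with IRF4-RV. Every IRF4-RV value was several times every EV-RV value, with a wider spread between the IRF4-RV libraries. The level rose 3.82-fold, from 10.2 ± 0.64 to 38.9 ± 8.15 CPM (SD, n = 2), with a log2 fold change of 1.93 (95% interval 1.575 to 2.29, edgeR adjusted p = 0.000128). Without IRF4-RV replicate 2 it was 2.14, and *Irs2* ranked 266 among all genes tested by size of the rise.

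*Pik3ip1* (ENSMUSG00000034614, chromosome 11, plus strand, 3330401 to 3342971) encodes a transmembrane protein that binds the catalytic subunit of PI3K and lowers its activity. It was counted 685 and 553 times with EV-RV against 1950 and 1942 times with IRF4-RV. The groups were far apart compared with the spread in either. The level rose 2.91-fold, from 19.0 ± 2.12 to 55.5 ± 2.99 CPM (SD, n = 2), with a log2 fold change of 1.54 (95% interval 1.29 to 1.79, edgeR adjusted p = 5.73e-05). Without IRF4-RV replicate 2 it was 1.601, and the gene ranked 391 by size of the rise. A gene on the opposite strand, *Gm12592*, overlaps its exons and was counted between 4 and 16 times.

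*Pik3cd* (ENSMUSG00000039936, chromosome 4, minus strand, 149649168 to 149702571), the catalytic subunit p110δ, moved the other way. It was counted 10738 and 9209 times with EV-RV against 8720 and 8762 times with IRF4-RV. Scaled for depth, these were 321.8 and 292.1 against 257.5 and 240.7 CPM, and both IRF4-RV libraries were below both EV-RV libraries. The level was 1.23-fold lower, with a log2 fold change of -0.30 (95% interval -0.49 to -0.11, edgeR adjusted p = 0.0323). Without IRF4-RV replicate 2 the call was lost and the value was -0.25, from a fit with 1 library in that group. IRF4-RV replicate 1, at 257.5 CPM, was by itself below both EV-RV libraries.

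*Pik3r1* (ENSMUSG00000041417, chromosome 13, minus strand, 101680563 to 101768217), which encodes p85α, p55α and p50α, the regulatory subunits that stabilize and restrain the catalytic subunit, had 1174 and 941 counts with EV-RV against 1089 and 998 with IRF4-RV. The groups overlapped. Levels were 32.5 ± 3.78 and 29.8 ± 3.35 CPM (SD, n = 2), with a log2 fold change of -0.13 (95% interval -0.41 to 0.15, edgeR adjusted p = 0.504). Without IRF4-RV replicate 2 it was -0.01.

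*Akt1* (ENSMUSG00000001729, chromosome 12, minus strand, 112653821 to 112674884), the kinase that phosphorylates FOXO factors, was counted 9948 and 9382 times with EV-RV against 9048 and 9856 times with IRF4-RV. These were 298.2 and 297.6 against 267.2 and 270.7 CPM. The replicates were very close in both groups and the IRF4-RV libraries were the lower pair. The log2 fold change of -0.15 nonetheless did not pass (95% interval -0.305 to 0.01, edgeR adjusted p = 0.171). It passed when only library size was used for scaling (-0.24, edgeR adjusted p = 0.0318), and without IRF4-RV replicate 2 it was -0.15 (edgeR adjusted p = 0.537).

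**Figure D3:**
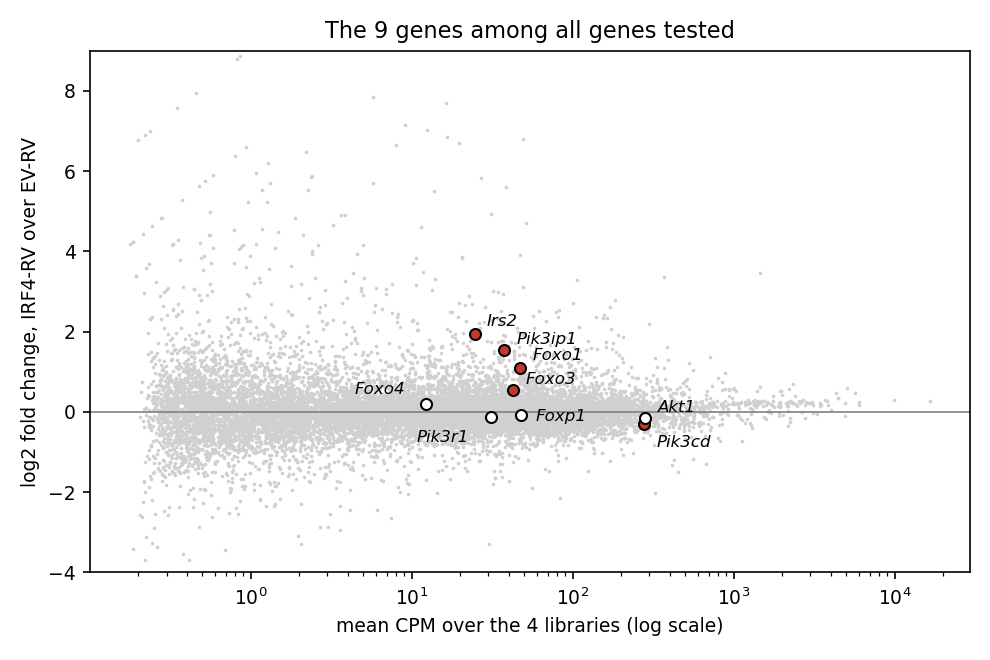
Log2 fold change, IRF4-RV over EV-RV, of all 14637 genes tested (gray) against mean CPM over the 4 libraries on a log axis, with the 9 genes marked and filled in red where they passed the FDR cutoff. *Akt1* and *Pik3cd* lay among the most highly expressed genes and the other 7 between 12.2 and 47.9 CPM.

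Levels of different genes were compared per kilobase of exonic length, as TPM (counts per kilobase, scaled to the same total in each library). With EV-RV, *Akt1* at 162.8 ± 8.55 TPM and *Pik3cd* at 110 ± 13.2 TPM stood far above the others (SD, n = 2). *Foxo3*, *Pik3ip1*, *Foxp1*, *Foxo1*, *Foxo4* and *Pik3r1* followed, from 10.3 down to 7.25 TPM, and each overlapped its neighbor in this order. *Irs2* was lowest at 3.62 ± 0.41 TPM, below *Pik3r1* in both libraries. With IRF4-RV, *Akt1* at 135.2 ± 1.79 TPM and *Pik3cd* at 82.1 ± 5.77 TPM kept the first places. *Pik3ip1* came next at 26.8 ± 2.05 TPM and did not overlap *Foxo1* at 15.3 ± 1.39 TPM. *Foxo1*, *Foxo3* and *Irs2*, at 12.7 ± 2.94 TPM, overlapped their neighbors, and *Foxo4*, *Foxp1* and *Pik3r1* formed the lowest group, between 7.70 and 6.10 TPM. By this length, *Irs2* thus left the last place and *Pik3ip1* separated from the forkhead factors, as a description of 2 libraries in each group. The exonic length used for *Foxp1* was 13751 bases, while its longest transcript has 7177. For *Pik3ip1* these were 4272 and 2573 bases. The places of both genes, and the separation of *Pik3ip1*, can therefore depend on the length chosen. The order with the longest transcript was not computed.

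The genes were next placed within their families, as the share of each paralogue in the family's summed TPM. No test was used, since 2 against 2 libraries cannot give a small exact p. *Foxo1* held 26.5% and 26.9% of the FOXO total with EV-RV against 39.2% and 41.4% with IRF4-RV. The share of *Foxo3* was almost level, at 35.3% and 35.4% against 36.9% and 35.9%, and that of *Foxo4* was 25.3% and 24.8% against 20.6% and 19.9%. *Foxo6* held 12.9% in both EV-RV libraries and 3.36% and 2.83% with IRF4-RV. It was the FOXO paralogue that fell (149 and 137 counts against 59 and 46, log2 fold change -1.55, edgeR adjusted p = 0.00278). By these shares *Foxo3* led in both EV-RV libraries and *Foxo1* in both IRF4-RV libraries, but with the longest transcript as the length *Foxo3*, at 38.4%, was above *Foxo1*, at 37.0%, in IRF4-RV replicate 1. Without division by length, the share of *Foxo3* was 43.2% in both EV-RV libraries and 39.9% and 38.4% with IRF4-RV, so its small difference changed sign.

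*Irs2* held 63.0% of the IRS total in both EV-RV libraries and 89.8% and 87.8% with IRF4-RV, the rest being *Irs1*. *Irs1* had 301 and 261 counts against 249 and 243 and did not pass the test (log2 fold change -0.30, edgeR adjusted p = 0.151). The summed TPM of the pair went from 6.20 and 5.28 to 16.5 and 12.1.

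*Pik3cd* made up 82.7% and 83.5% of the class I catalytic transcripts with EV-RV against 80.5% and 82.0% with IRF4-RV, so it dominated in every library. *Pik3ca*, the ubiquitous p110α subunit, went from 9.40% and 8.45% to 14.1% and 13.4%, and *Pik3cg*, the subunit coupled to G protein receptors, from 7.68% and 7.70% to 5.16% and 4.46%. *Pik3cb* stayed at or below 0.339%. The summed TPM of these subunits was 144.3 and 120.6 with EV-RV against 107 and 95.1 with IRF4-RV, lower in both IRF4-RV libraries. Here and for the other families, TPM lacks the TMM factors applied to CPM, so the groups are compared on another scale. *Cd79a*, with a log2 fold change of -0.015 by edgeR, had 1450 and 1366 TPM with EV-RV against 1303 and 1263 with IRF4-RV.

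Among the class IA regulatory subunits, *Pik3r2* (p85β) and not *Pik3r1* was the main transcript, with 86.4% and 87.2% against 77.9% and 79.9%. *Pik3r1* took 12.1% and 11.2% with EV-RV against 17.1% and 15.5% with IRF4-RV, a larger share of a smaller total, since the family's summed TPM was 66.7 and 56.9 with EV-RV against 39.2 and 35.6 with IRF4-RV. *Pik3r3* (p55γ) went from 1.44% and 1.59% to 5.00% and 4.58%. In the FOXP family, *Foxp4* held between 79.8% and 82.6% and *Foxp1* between 17.4% and 20.0%, with overlapping groups for both. The share of *Foxp1* was between 24.64% and 28.05% with the longest transcript as the length. Without division by length it was between 36.98% and 41.16%, so its size depends on the length used. *Foxp4* had a log2 fold change of 0.04 (edgeR adjusted p = 0.847), and *Foxp2* and *Foxp3* had at most 4 counts in any library.

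**Figure D4:**
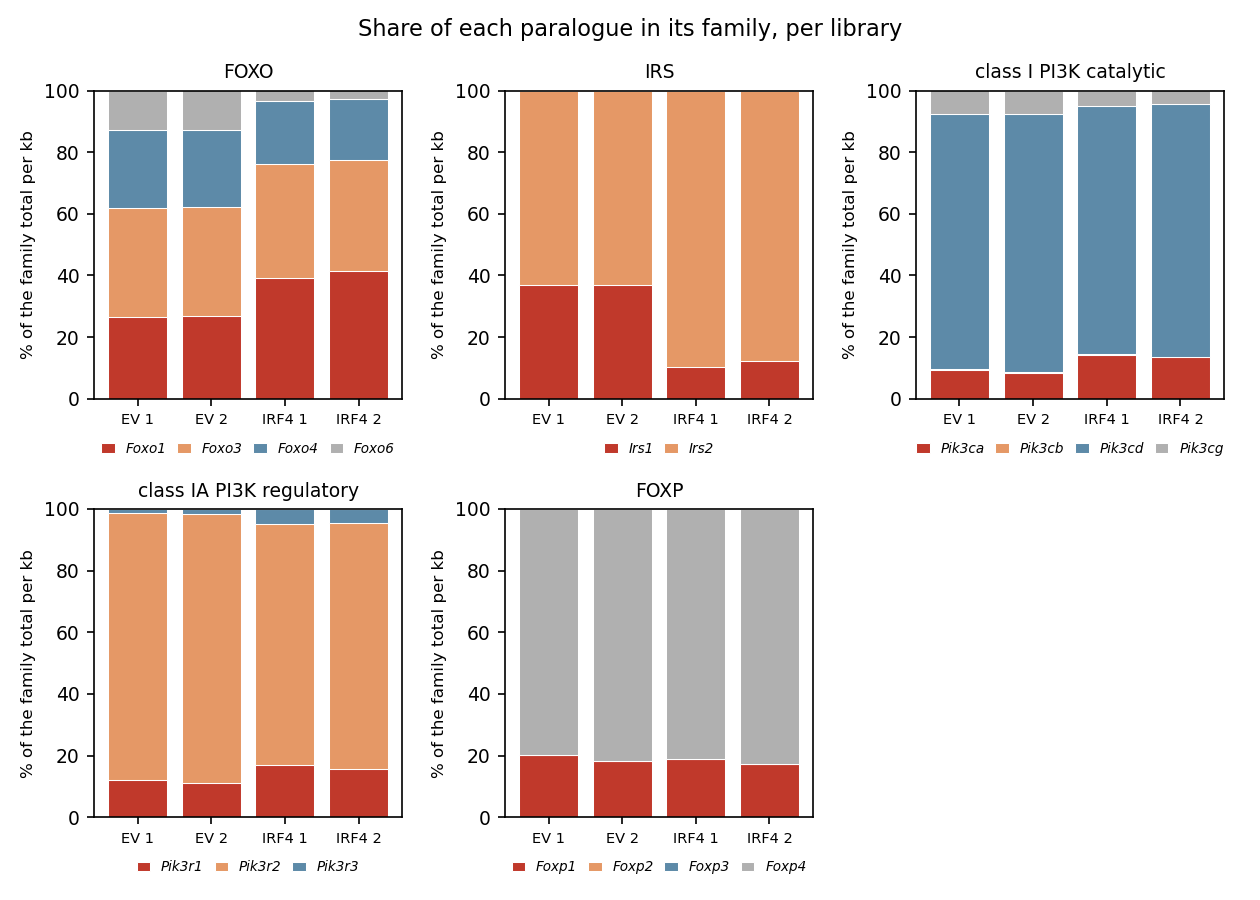
Share of each paralogue in the summed TPM of its family, 1 bar per library (EV, EV-RV; IRF4, IRF4-RV; in percent). *Foxo1* and *Irs2* took a larger part of their families in both IRF4-RV libraries, and *Pik3cd*, *Pik3r2* and *Foxp4* remained the main transcripts of theirs.

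The other genes of the pathway were counted in 6 lists that did not include the 9 genes. These lists were chosen with earlier results of these data known, so their shares are descriptions. Of the 7 other class I PI3K subunits, 4 passed the test, 2 in each direction (also without IRF4-RV replicate 2), and their median log2 fold change was 0.16. The share called was 57.1%, against 29.7% of all genes. With library size only, 1 was higher and 2 were lower. *Pik3r3* rose by 1.06 on the log2 scale (edgeR adjusted p = 0.00696), from 73 and 70 to 168 and 155 counts, and *Pik3ca* by 0.35 (edgeR adjusted p = 0.0777). *Pik3ca* was not called without EV-RV replicate 2 (0.21, edgeR adjusted p = 0.282) or without IRF4-RV replicate 1 (0.23, edgeR adjusted p = 0.31). *Pik3cg* fell by 0.94 (edgeR adjusted p = 0.00167) and *Pik3r2* by 0.74 (edgeR adjusted p = 0.000593). *Pik3cb* had 34 and 43 counts against 27 and 16 (log2 fold change -0.95, edgeR adjusted p = 0.165). *Pik3r5* (0.60, edgeR adjusted p = 0.103) and *Pik3r6* (0.16, edgeR adjusted p = 0.398), the partners of the *Pik3cg* product, did not pass.

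Among adaptors and receptor inputs, 6 of 12 tested genes passed, all of them higher, with a median log2 fold change of 0.27. The share called was 50%, while 29.7% of all genes were called and 16% were called higher. The count of lower genes was 0 by edgeR, also at an unadjusted p under 0.05, and 0 by DESeq2, but 2 were lower and 4 higher with library size only. There were 6 higher and 0 lower without IRF4-RV replicate 2. *Pik3ap1*, which encodes the B-cell adaptor BCAP that links the B-cell receptor to PI3K, went from 2912 and 2493 to 6295 and 6091 counts, a log2 fold change of 1.09 (edgeR adjusted p = 0.000148). *Sh2b3*, a brake on cytokine receptor signaling, rose by 0.57 (edgeR adjusted p = 0.00549). *Grb10*, an inhibitor of insulin receptor signaling, rose by 0.84 (edgeR adjusted p = 0.0401), but not without EV-RV replicate 2 (0.72, edgeR adjusted p = 0.151).

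Of 10 tested phosphatases and antagonists of PI3K, 2 passed, both higher (0 lower by edgeR, at an unadjusted p under 0.05, and by DESeq2), a share of 20%, with a median of 0.13. The count was 2 higher and 1 lower without IRF4-RV replicate 2. The genes that passed with all libraries were *Inpp5k* (0.62, edgeR adjusted p = 0.00212) and *Phlpp1* (0.41, edgeR adjusted p = 0.0846), a phosphatase of AKT. *Phlpp1* lost the call without EV-RV replicate 1 (0.48), EV-RV replicate 2 (0.33) or IRF4-RV replicate 1 (0.17). *Inpp5d*, a lipid phosphatase of blood cells, is named here after its values were seen, and did not pass (edgeR adjusted p = 0.624). The rise of *Pik3ip1* was thus larger than that of any called antagonist in this list.

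Of 22 AKT and mTOR genes, 5 passed, 4 higher and 1 lower, with a median of 0.06 and a share of 22.7%. The balance turned with library size only, to 2 higher and 4 lower with a median of -0.03, and without IRF4-RV replicate 2 it was 2 higher and 1 lower. *Mtor* rose by 0.81 (9147 and 6762 against 15631 and 14357 counts, edgeR adjusted p = 0.00349). *Sgk1*, a kinase that can also phosphorylate FOXO factors, rose by 1.04 (edgeR adjusted p = 0.0376) at 35 to 112 counts, and was not called without EV-RV replicate 2 (0.84, edgeR adjusted p = 0.147) or IRF4-RV replicate 2 (0.82, edgeR adjusted p = 0.131). *Akt2* rose by 0.25 (edgeR adjusted p = 0.0478), a call lost without EV-RV replicate 1 (0.20), IRF4-RV replicate 1 (0.21) or IRF4-RV replicate 2 (0.26). *Eif4ebp1*, the translation repressor that mTORC1 inactivates, fell by 0.94 (edgeR adjusted p = 0.000273).

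Of 22 tested FOXO and FOXP paralogues and direct FOXO regulators, 7 passed, 4 higher and 3 lower, a share of 31.8% with a median of 0.01. Here too the balance turned with library size only, to 2 higher and 6 lower with a median of -0.08, while it was 4 and 3 without IRF4-RV replicate 2. *Stk3*, a kinase that activates FOXO factors, rose by 0.67 (edgeR adjusted p = 0.00469) and the deacetylase *Sirt2* by 0.46 (edgeR adjusted p = 0.00997). *Mdm2*, a ubiquitin ligase of FOXO proteins, rose by 0.30 (edgeR adjusted p = 0.0444), which was lost without EV-RV replicate 1 (0.23), IRF4-RV replicate 1 (0.24) or IRF4-RV replicate 2 (0.33). The ubiquitin ligase component *Skp2* fell by 0.45 (edgeR adjusted p = 0.00803) and the methyltransferase *Prmt1* by 0.40 (edgeR adjusted p = 0.0131).

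The list of FOXO target genes held most calls. Of 32 tested genes, 23 passed (71.9%, against 29.7% of all genes), 17 of them higher and 6 lower, with a median log2 fold change of 0.48. Leaving out IRF4-RV replicate 2 gave 17 higher and 3 lower. The list was chosen with results of these libraries known, so its share is a description and not independent support. It also holds *Ccnd2*, which FOXO factors are known to repress and which is counted among the higher genes. The split of directions and the median therefore do not measure FOXO activity. The genes named for the size of their rise were *Ccr7* and *Klf2*. *Klf2*, a factor of quiescence and lymphocyte traffic, went from 370 and 291 to 1471 and 1506 counts (2.06, edgeR adjusted p = 2.45e-05). The chemokine receptor *Ccr7* went from 1476 and 1508 to 10764 and 11637 counts (2.79, edgeR adjusted p = 1.38e-06).

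The genes named among those that fell were *Cited2* (-0.72, edgeR adjusted p = 0.000354), a negative regulator of hypoxia-inducible transcription, the pro-apoptotic *Bbc3* (-0.49, edgeR adjusted p = 0.0194) and the catalase gene *Cat* (-0.39, edgeR adjusted p = 0.00918). The following genes of the list were chosen after their values were seen. *Il7r*, which FOXO1 activates in B-cell progenitors, had 1488 and 1381 counts with EV-RV against 1306 and 1231 with IRF4-RV (-0.29, edgeR adjusted p = 0.0686). Its call was lost without EV-RV replicate 1 (-0.28), EV-RV replicate 2 (-0.30) or IRF4-RV replicate 2 (-0.19, edgeR adjusted p = 0.446). *Rag1* and *Rag2*, likewise FOXO1 targets at this stage, had at most 1 count in any library and were not tested. *Ccng2* (1.38, edgeR adjusted p = 3.54e-05) and the cell cycle inhibitor *Cdkn1b* (0.55, edgeR adjusted p = 0.00716) were higher, as was *Ccnd2* (1.37, edgeR adjusted p = 2.6e-05), a cyclin that FOXO factors are known to repress.

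**Figure D5:**
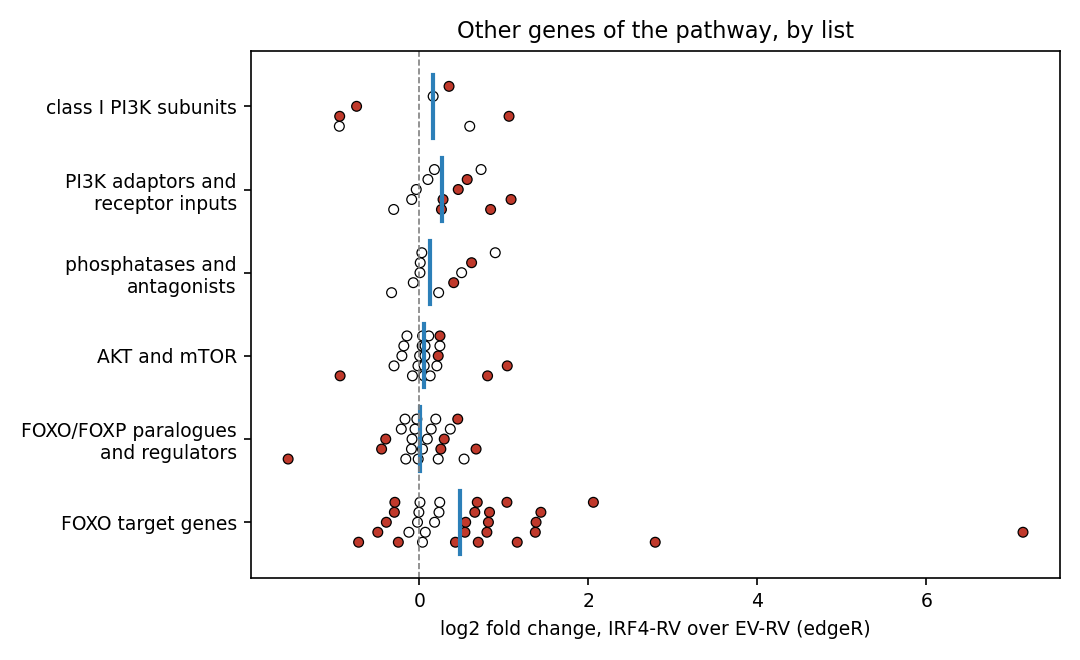
Log2 fold change, IRF4-RV over EV-RV, of each tested gene in the 6 lists (points, filled where the FDR cutoff of 0.1 was passed), with the list median as a blue bar. The median of the FOXO target genes was the highest of the 6, at 0.48.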

How the data were processed

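Bulk RNAseq of 2 EV-RV and 2 IRF4-RV libraries of T8 cells was analyzed. Per the paper's methods and the submitters' processing notes, the authors checked reads with FastQC (0.11.2), aligned them to GRCm38 with STAR (2.4.0j) and counted them per gene with featureCounts, and their own comparison used DESeq2 (1.22.1). The authors deposited these counts as whole numbers without normalization. How strand and multiply aligned reads were handled is not given in the sources used here, so genes with overlapping or near-identical copies are uncertain. Groups came from the labels, whose protocol text names T11 where titles and tissue name T8.

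Of 55359 identifiers, 52083 matched GENCODE M21, and the other 3276 held 0.203% to 0.486% of the counts of a library, so the annotation used for counting appears newer than M21. Genes passing filterByExpr were tested in R 4.3.3 with edgeR 4.0.16 (TMM factors of 0.964 to 1.05, quasi-likelihood F test, Benjamini-Hochberg adjustment, FDR of 0.1). The test was run on simulated data with far fewer genes changed than were called here, which cannot check the choice of scaling. Replicates differed by more than sampling noise (chi-square per degree of freedom 14.1 and 13.1) and were used as separate samples. TPM used the union of exons of GENCODE M21. Total counts lay between 31230223 and 37817752 per library.

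Members and gene lists were chosen with earlier results of these data known. Genes named from a list were at most 3 that rose and 3 that fell most among called genes, given a mean normalized count of 50 or more and no overlap between groups, plus paralogues of the 9 genes. A few genes that this rule names, and family shares that need them, are not reported here. Alternatives were DESeq2 1.42.0, other scaling, filters and FDR, the replicate block, other lengths, and leaving out each library. Protein sequences and T11 libraries were not analysed here.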

Additional observations from a re-analysis of the deposited data

How the results depend on the processing

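The fold changes and calls were checked under 11 alternatives, 4 of which left out 1 library. The alternative FDR of 0.05 reused the main fit, so fold changes were the same there and no further gene could pass. *Foxo1*, *Foxo3*, *Pik3ip1* and *Irs2* stayed higher and past the cutoff in all 11, and *Foxo4* and *Pik3r1* kept their direction and did not pass in any of the 11. *Akt1* passed with library size only (-0.24, edgeR adjusted p = 0.0318). The labels share replicate numbers between groups, but nothing says that a number marks a shared culture or day, and the deviations of same-numbered libraries correlated by 0.26 over 2 pairs. With the replicate number as a block, *Akt1* passed (-0.15, edgeR adjusted p = 0.0261), the AKT and mTOR list held 10 calls, the list of FOXO regulators 13, the list of adaptors 6 higher and 1 lower, and 6394 genes were called, among them all 4349 of the fit without the block. No other of the 9 genes changed its call with the block. DESeq2 called 3596 genes, 3524 of them shared, and an FDR of 0.05 left 3347. The list of phosphatases held 1 call with library size only and with an FDR of 0.05.

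Leaving out each library in turn, 3573 to 3646 genes and 4 to 5 of the 9 genes were called. The log2 fold change ranged from 1.004 to 1.17 for *Foxo1*, 0.39 to 0.67 for *Foxo3*, 0.04 to 0.33 for *Foxo4*, -0.29 to 0.13 for *Foxp1*, 1.44 to 1.65 for *Pik3ip1*, -0.37 to -0.24 for *Pik3cd*, -0.27 to -0.01 for *Pik3r1*, -0.16 to -0.15 for *Akt1* and 1.68 to 2.14 for *Irs2*. *Foxp1* changed sign without EV-RV replicate 1 (0.125) and without IRF4-RV replicate 2 (0.119). *Pik3cd* lost its call without IRF4-RV replicate 2 (-0.25). Calls ranged from 3 to 4 for the PI3K subunits, 4 to 6 for the adaptors, 1 to 3 for the phosphatases (1 of the 3 lower), 3 to 4 for the AKT and mTOR genes, 5 to 8 for the FOXO regulators and 19 to 23 for the FOXO targets.

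Differences in family share (IRF4-RV minus EV-RV, in percentage points) moved when counts were not divided by length, from 13.7 to 12.4 for *Foxo1*, -4.82 to -4.06 for *Foxo4*, 4.59 to 7.48 for *Pik3r1* and 25.8 to 30.5 for *Irs2*, and from 1.003 to -4.04 for *Foxo3*. With the longest transcript as the length, *Pik3cd* went from -1.84 to -0.76. Leaving out each library gave 12.6 to 14.8 for *Foxo1*, 0.52 to 1.49 for *Foxo3*, -5.16 to -4.48 for *Foxo4*, -1.99 to -0.15 for *Foxp1*, -2.60 to -1.10 for *Pik3cd*, 3.81 to 5.37 for *Pik3r1* and 24.8 to 26.8 for *Irs2*. Where a value moved, the cause was not tested, except that division by length sets the order of paralogues of unequal length by construction. The 9 genes had between 307 and 10738 counts in a library, and the libraries of a group differed beyond sampling noise, so depth alone did not set the width of the intervals.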
